A study of Mus musculus with 16 samples.

Results

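Whole retinas of C57 mice were taken for RNA sequencing on day 12 of life, from mice that had breathed 75% oxygen (hyperoxia) or room air (normoxia). The hyperoxia group had 4 libraries from pups raised in room air until day 7 and then kept in 75% oxygen until day 12. The normoxia group had 4 libraries from pups of the same strain and age that stayed in room air. These 8 libraries are all of the C57 libraries among the 16 of the series, and the whole table of genes entered the comparison, with no choice of genes by their values beyond a filter on low values. The other 8 libraries are BALBc retinas of the same age, 4 in 75% oxygen and 4 in room air, and they entered the same statistical model. The labels name no genotype, allele or drug, and do not say that each library came from a separate animal. The p-values here therefore rest on the spread among libraries, which may be technical. The labels place the exposure in the first phase of oxygen-induced retinopathy and do not state which of the strains is the resistant one.

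Oxygen-induced retinopathy is a mouse model of retinopathy of prematurity. In a newborn mouse the retinal vessels are still growing, and high oxygen lowers the hypoxia signals on which immature capillaries depend, so that part of the capillary bed is lost. The retina is mostly made of rod photoreceptors, with cones, bipolar, horizontal, amacrine and ganglion cells, Müller glia, and a small share of endothelial cells and pericytes. In bulk tissue fewer cells of a type cannot be told apart from less RNA per cell.

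Values are FPKM as deposited, fragment numbers scaled by gene length and library size. The C57 libraries held 16.7 to 29.7 M reads each, as recovered from the smallest FPKM differences. The test was limma on log2(FPKM + 0.5). It ran over 14953 genes, those that reached 1 FPKM in 4 or more of the 16 libraries. Values of a gene are given in the order of libraries 1 to 4 of each group. Log2 changes are hyperoxia minus normoxia on that scale, which understates the change of genes with low values. A gene is called when its Benjamini-Hochberg adjusted p, over all 14953 genes, is under 0.05.

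The 8 libraries did not form 2 even groups of 4. In both groups libraries 1 and 2 were close to each other, and so were libraries 3 and 4: the median absolute log2 difference over genes was 0.107 to 0.159 within these pairs and 0.234 to 0.301 between them. The labels name no batch and do not tie the pairs of one group to those of the other. Xist, the RNA that silences an X chromosome in females, was 93.5, 105, 81.1 and 61.8 FPKM in hyperoxia, against 0.0335, 0.0296, 0.0186 and 60.7 FPKM in normoxia. Ddx3y, a Y-linked gene, was listed at 0 in all 4 hyperoxia libraries and was 15.8, 16.6, 11.9 and 3.55 FPKM in normoxia. The hyperoxia libraries thus read as female, normoxia libraries 1 to 3 as male and normoxia library 4 as holding both transcripts, so that sex and oxygen cannot be told apart in C57. Rod genes were the other large difference between libraries. Gnat1, part of the rod G protein transducin, was 1051, 1088, 1123 and 1176 FPKM in hyperoxia, against 612, 476, 2924 and 2223 FPKM in normoxia. Lens crystallin genes were high in hyperoxia library 3. Cryaa, a crystallin of the lens, was 0.0890, 1.16, 1216 and 107 FPKM in hyperoxia, against 38.2, 12.8, 67.6 and 191 FPKM in normoxia.

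Of 14953 genes, 50 were called (0.334%), 16 of them higher in hyperoxia (0.107% of the genes tested) and 34 lower (0.227%). The 4 hyperoxia libraries did not overlap the 4 normoxia libraries for any of the 50, and the same was so for 1141 of all genes tested (7.63%). At an unadjusted p under 0.05 there were 1008 genes on the higher side (6.74%) and 979 on the lower side (6.55%). Log2 changes of the called genes ran from -2.74 (the predicted gene Gm44650) to 1.60 (the predicted gene Gm10654), and the median absolute change was 0.74. The called set holds 37 protein-coding genes, 14 higher and 23 lower, and 13 genes of other classes. The median absolute log2 difference of the 50 was 0.896 between libraries 1 and 2 of the groups and 0.549 between libraries 3 and 4, beside 0.255 and 0.180 over all tested genes, and 43 of the 50 differed more between libraries 1 and 2. With Ddx3y as a sex covariate 0 genes were called by limma and 1077 had an unadjusted p under 0.05. Ddx3y was 0 in every C57 hyperoxia library and above 0 in every C57 normoxia library. This covariate thus nearly follows oxygen in C57, and the loss of calls under it cannot tell sex from oxygen. The C57 libraries fitted alone, without the BALBc libraries in the estimate of the spread, gave 1 call, and 0 of the 50 genes passed there. The call count was 46 by limma voom on recovered reads, which kept 38 of the 50. It was 0 without hyperoxia library 1 or without normoxia library 2, 3 or 4. It was 2 without normoxia library 1, 3 without hyperoxia library 2, 85 without hyperoxia library 3 and 48 without hyperoxia library 4.

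**Figure D1:**
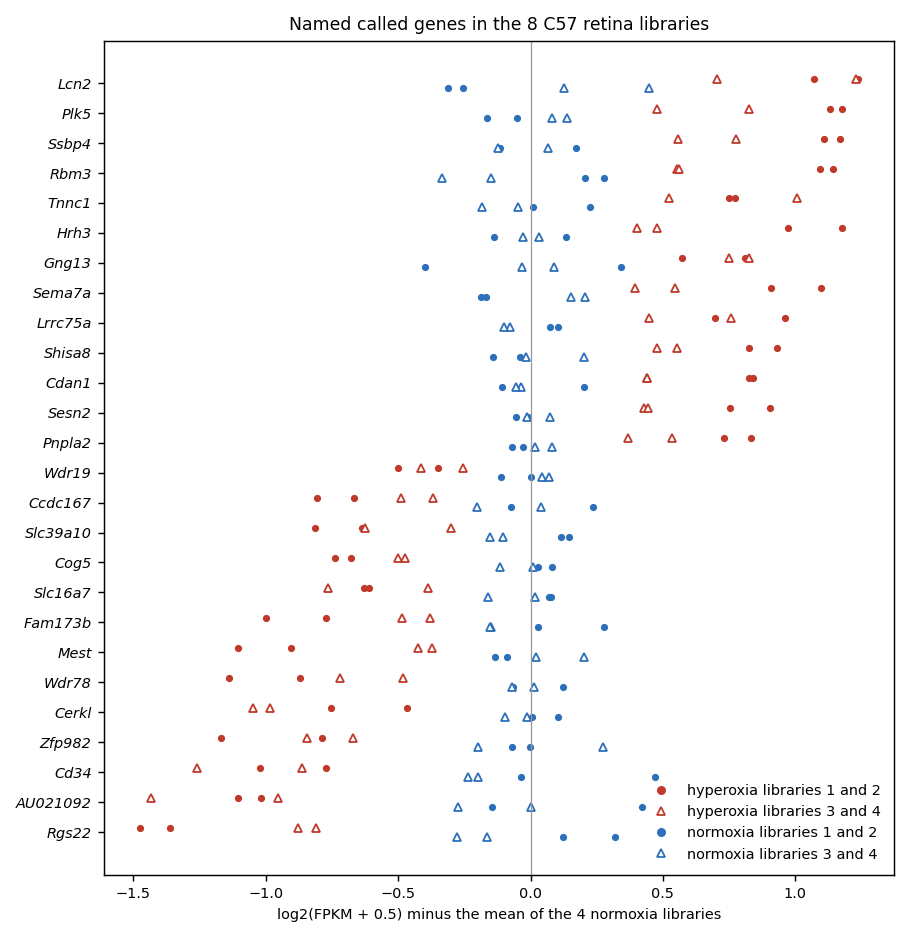
The called genes that the naming rule takes, by library. Each row is a gene, and the horizontal axis gives log2(FPKM + 0.5) minus the mean of the 4 normoxia libraries; red marks are hyperoxia libraries and blue marks normoxia libraries, with filled circles for libraries 1 and 2 and open triangles for libraries 3 and 4. No red mark lies within the range of the blue marks of the same gene.

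Among the higher called genes Ssbp4 and Plk5 had the smallest p. Ssbp4 (ENSMUSG00000070003, GRCm38 chromosome 8, 70597490 to 70608872), a protein of the single-stranded DNA binding family, was 40.96, 39.3, 26.6 and 31.03 FPKM in hyperoxia, against 20.2, 16.5, 18.8 and 16.4 FPKM in normoxia (log2 change 0.90, SE 0.12, adjusted p = 0.0234). Plk5 (ENSMUSG00000035486, chromosome 10, 80356459 to 80365489), a polo-like kinase of differentiated neurons, was 81.7, 84.5, 51.8 and 66.1 FPKM in hyperoxia, against 35.8, 32.98, 40.9 and 39.2 FPKM in normoxia (log2 change 0.90, SE 0.14, adjusted p = 0.0234). In both genes the hyperoxia libraries 1 and 2 were the highest of the 8, and hyperoxia library 3 came nearest to normoxia. Ssbp4 stayed past the threshold in 21 of 29 other settings, the most among the called genes that the naming rule takes.

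Rbm3, Sesn2, Pnpla2 and Lcn2 were also called higher. Rbm3, an RNA binding protein induced by mild cold, was 41.7, 40.3, 27.6 and 27.7 FPKM in hyperoxia, against 22.7, 21.6, 16.8 and 14.7 FPKM in normoxia (log2 change 0.84, SE 0.16, adjusted p = 0.0454). Sesn2, a sestrin induced by stress kinases and p53 that restrains mTORC1, was 10.9, 9.81, 7.73 and 7.82 FPKM in hyperoxia, against 5.58, 5.39, 5.56 and 5.93 FPKM in normoxia (log2 change 0.63, SE 0.12, adjusted p = 0.0454). Its normoxia libraries lay within 0.6 FPKM of each other, and all 4 hyperoxia libraries were above them. Pnpla2, the lipase ATGL that removes the first fatty acid from stored triglyceride, was 6.16, 6.65, 5.31 and 4.68 FPKM in hyperoxia, against 3.44, 3.33, 3.57 and 3.74 FPKM in normoxia (log2 change 0.61, SE 0.11, adjusted p = 0.0404). Lcn2, a secreted lipocalin of reactive glia, was 2.69, 3.08, 1.97 and 3.06 FPKM in hyperoxia, against 0.721, 0.771, 1.57 and 1.15 FPKM in normoxia (log2 change 1.06, SE 0.21, adjusted p = 0.0494). Lcn2 was low in both groups, and its smallest gap lay between hyperoxia library 3 and normoxia library 3.

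Sema7a, Gng13, Shisa8, Hrh3 and Tnnc1 were called higher as well. Sema7a, a membrane-anchored semaphorin, was 42.5, 37.2, 25.9 and 28.8 FPKM in hyperoxia, against 17.2, 17.4, 21.8 and 22.7 FPKM in normoxia (log2 change 0.74, SE 0.14, adjusted p = 0.0454). Gng13, a G protein gamma subunit of ON bipolar cells, was 25.8, 30.5, 30.9 and 29.2 FPKM in hyperoxia, against 21.9, 12.9, 16.8 and 18.3 FPKM in normoxia (log2 change 0.74, SE 0.15, adjusted p = 0.0494). Gng13 was not higher in hyperoxia libraries 1 and 2 than in hyperoxia libraries 3 and 4. Shisa8, of a family of AMPA receptor auxiliary proteins, averaged 13.7 ± 2.13 FPKM in hyperoxia and 8.21 ± 0.899 FPKM in normoxia (SD, n = 4 each; log2 change 0.70, adjusted p = 0.0466). Hrh3, the histamine H3 receptor, averaged 4.52 ± 1.31 FPKM in hyperoxia and 2.40 ± 0.229 FPKM in normoxia (SD, n = 4 each; log2 change 0.76, adjusted p = 0.048). Tnnc1, the slow and cardiac troponin C, averaged 2.95 ± 0.475 FPKM in hyperoxia and 1.53 ± 0.242 FPKM in normoxia (SD, n = 4 each; log2 change 0.76, adjusted p = 0.0454). Lrrc75a rose by 0.71 and Cdan1, the gene of a congenital dyserythropoietic anaemia, by 0.64 on the log2 scale (adjusted p = 0.0349 and 0.0454). Exons of Rbm3, Gng13, Hrh3, Lrrc75a and Cdan1 overlap exons of another gene, and whether the counting used strand is not known, so their reads and those of the neighbour cannot be told apart.

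Wdr19, Cerkl and Wdr78, known from cilia or inherited retinal disease, were among the lower called genes. Wdr19 (ENSMUSG00000037890, chromosome 5, 65199696 to 65260415), a subunit of the intraflagellar transport complex that carries proteins back from the ciliary tip, was 4.02, 4.51, 4.29 and 4.85 FPKM in hyperoxia, against 5.42, 5.89, 6.08 and 6.20 FPKM in normoxia (log2 change -0.38, SE 0.08, adjusted p = 0.0494). Cerkl, a gene of inherited retinal dystrophy, was 6.63, 8.22, 5.58 and 5.32 FPKM in hyperoxia, against 11.6, 12.4, 11.4 and 10.8 FPKM in normoxia (log2 change -0.81, SE 0.13, adjusted p = 0.0246). Wdr78, an intermediate chain of ciliary dynein, averaged 3.56 ± 0.766 FPKM in hyperoxia and 6.49 ± 0.445 FPKM in normoxia (SD, n = 4 each; log2 change -0.80, adjusted p = 0.0454). In all of these the 4 normoxia libraries were close together and each lay above every hyperoxia library. Rgs22, a regulator of G protein signalling, was 1.05, 1.18, 1.96 and 1.85 FPKM in hyperoxia, against 4.20, 4.88, 3.07 and 3.36 FPKM in normoxia (log2 change -1.13, SE 0.18, adjusted p = 0.0246), with its lowest values in hyperoxia libraries 1 and 2.

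The lower called genes also held a Golgi subunit and membrane transporters. Cog5, a subunit of the conserved oligomeric Golgi complex, was 5.09, 5.33, 6.10 and 6.23 FPKM in hyperoxia, against 9.38, 9.01, 8.89 and 8.12 FPKM in normoxia (log2 change -0.60, SE 0.09, adjusted p = 0.0234). Slc39a10, a zinc importer, was 6.36, 5.56, 8.16 and 6.40 FPKM in hyperoxia, against 11.3, 11.03, 9.42 and 9.07 FPKM in normoxia (log2 change -0.59, SE 0.12, adjusted p = 0.0466). Slc16a7, the monocarboxylate transporter MCT2 of lactate and ketone bodies, was 1.20, 1.17, 1.48 and 1.03 FPKM in hyperoxia, against 2.22, 2.23, 1.82 and 2.12 FPKM in normoxia (log2 change -0.60, SE 0.12, adjusted p = 0.0466). Cog5 separated the groups by the widest margin of these: its highest hyperoxia value was 6.23 FPKM and its lowest normoxia value 8.12 FPKM. Outside the naming rule, and chosen after their values were seen, Vps13c (a lipid transfer protein, -0.57), Atp2c1 (the Golgi calcium and manganese pump, -0.39), Ap3b1 (a subunit of the AP-3 vesicle coat, -0.42) and Gpr89 (a Golgi pH regulator, -0.58) were also called lower. Atp2c1 was 15.3, 16.2, 15.9 and 15.8 FPKM in hyperoxia, against 20.99, 21.7, 21.3 and 19.5 FPKM in normoxia (adjusted p = 0.0246), with little spread within either group.

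The other named lower genes had different roles. Mest, an imprinted gene expressed from the paternal allele, was 13.3, 15.3, 22.4 and 21.5 FPKM in hyperoxia, against 26.5, 27.3, 29.5 and 33.6 FPKM in normoxia (log2 change -0.70, SE 0.14, adjusted p = 0.0494). Cd34, a surface sialomucin of endothelial and blood progenitor cells, was 1.07, 0.820, 0.975 and 0.620 FPKM in hyperoxia, against 3.22, 2.12, 1.84 and 1.78 FPKM in normoxia (log2 change -0.98, SE 0.20, adjusted p = 0.0494). Cd34 was low in all 8 libraries and is not a member of the endothelial list, where 0 genes were called. Zfp982, a zinc finger gene, fell by 0.87, Fam173b, a mitochondrial lysine methyltransferase, by 0.66 and Ccdc167 by 0.58 on the log2 scale (adjusted p = 0.0246, 0.0466 and 0.0454). AU021092 fell by 1.13 (adjusted p = 0.0454). Exons of Cerkl, Wdr78, Cog5, Slc16a7, Mest, Cd34, Ccdc167, Gpr89, Atp2c1 and Tube1 overlap those of other genes, so that their reads are uncertain in the same way; this holds for 18 of the 50 called genes in all.

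Called genes differed in base composition and length. The longest transcript of the 14 higher protein-coding genes had a median GC content of 57.8%, that of the 23 lower ones 44.1%, and that of all 12210 tested protein-coding genes 49.8%. The median gene span was 7.97 kb for the higher genes, 70.2 kb for the lower genes and 25.02 kb over all. The same held at an unadjusted p under 0.05, with median GC contents of 54.8% for 859 higher and 46.4% for 739 lower protein-coding genes. Across all tested protein-coding genes the Spearman correlation of GC content with the log2 change was 0.303. It was 0.099 for libraries 1 and 2 alone, 0.339 for libraries 3 and 4 alone and 0.073 for the BALBc change. These correlations describe genes, which share their libraries and are not independent replicates, and the part of base composition in the calls was not tested.

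The 10 genes next after the threshold had adjusted p between 0.0510 and 0.0526. Higher in hyperoxia by value were Tmem267 (log2 change 1.14, adjusted p = 0.0516), Gadd45b, a stress-induced growth arrest gene (log2 change 0.95, adjusted p = 0.0526), Snrpert (log2 change 0.90, adjusted p = 0.0526), Paxx, a DNA end-joining factor (log2 change 0.43, adjusted p = 0.0517), Agap3 and Zfp740. Below 0 were Vwa1, a matrix protein (log2 change -0.88, adjusted p = 0.0526), Zfp882, Rbm45 and Fam120c. Gadd45b was 3.44, 3.12, 2.65 and 1.97 FPKM in hyperoxia, against 0.812, 1.005, 1.77 and 1.29 FPKM in normoxia, with no overlap between the groups. None of these 10 passed the test.

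The vascular lists lay on the lower side in hyperoxia. Of 20 tested endothelial genes, 0 were called, 17 were below 0 (48.4% of all genes were) and 11 were below 0 with an unadjusted p under 0.05, where the share over all genes was 6.55%. The median log2 change was -0.43 in C57 and -0.57 in BALBc, against 0.01 over all genes in C57. The mean log2(FPKM + 0.5) of the list was 1.75, 1.76, 1.63 and 1.501 in hyperoxia, against 2.16, 2.06, 1.88 and 1.95 in normoxia, so the groups did not overlap. Aplnr, the apelin receptor of endothelial cells, was 1.68, 1.18, 1.06 and 1.40 FPKM in hyperoxia, against 3.46, 3.74, 2.81 and 2.36 FPKM in normoxia (log2 change -0.97, SE 0.20, adjusted p = 0.0556). Cldn5, the tight junction protein of the blood-retina barrier, was 12.6, 11.6, 14.4 and 12.4 FPKM in hyperoxia, against 30.4, 20.8, 19.7 and 19.7 FPKM in normoxia (log2 change -0.78, SE 0.26, adjusted p = 0.193). In both genes every hyperoxia library lay below every normoxia library, and neither passed the test over all genes. Tek, the receptor of the angiopoietins, was 0.700, 0.903, 0.550 and 0.510 FPKM in hyperoxia, against 1.72, 1.78, 0.786 and 1.37 FPKM in normoxia (log2 change -0.69, adjusted p = 0.17), with normoxia library 3 inside the range of hyperoxia.

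Cdh5, the endothelial cadherin, was 1.66, 1.74, 1.28 and 0.938 FPKM in hyperoxia, against 3.36, 3.13, 2.10 and 2.20 FPKM in normoxia (log2 change -0.75, adjusted p = 0.208), with no overlap. In all, 6 of the 20 endothelial genes lay lower in hyperoxia with no overlap, where 3.74% of all genes did. Kdr, the main receptor of VEGF, which neurons of the retina also express, was 15.1, 13.5, 20.04 and 18.1 FPKM in hyperoxia, against 20.7, 24.2, 17.2 and 19.995 FPKM in normoxia (log2 change -0.30, adjusted p = 0.547), and its groups overlapped. Pecam1 was 2.36, 2.33, 1.30 and 1.07 FPKM in hyperoxia, against 3.10, 3.05, 1.87 and 2.21 FPKM in normoxia (log2 change -0.46, adjusted p = 0.36): in each group libraries 1 and 2 were higher than libraries 3 and 4. Apln, the ligand of Aplnr, and Flt1, a decoy receptor of VEGF, were named after their values were seen. Apln was 3.72, 3.71, 2.77 and 1.65 FPKM in hyperoxia, against 2.31, 1.81, 2.11 and 1.80 FPKM in normoxia (log2 change 0.42, adjusted p = 0.551) and Flt1 3.77, 4.64, 1.59 and 1.69 FPKM in hyperoxia, against 1.72, 2.16, 1.93 and 2.16 FPKM in normoxia (log2 change 0.35, adjusted p = 0.571), with hyperoxia libraries 1 and 2 the highest of the 8 for both.

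The mural list, of pericytes and smooth muscle, had 9 tested members and 0 called. Of the 9, 8 were below 0 (48.4% over all genes) and 4 were lower with an unadjusted p under 0.05 (6.55%). The median log2 change was -0.47 in C57 and -0.47 in BALBc. The list mean was 1.98, 2.04, 1.86 and 1.51 in hyperoxia, against 2.29, 2.27, 2.40 and 2.36 in normoxia. Rgs5, a regulator of G protein signalling that marks pericytes, was 14.9, 14.4, 16.5 and 9.62 FPKM in hyperoxia, against 31.5, 27.9, 26.2 and 26.98 FPKM in normoxia (log2 change -1.02, SE 0.33, adjusted p = 0.189), an average of 13.9 ± 2.97 FPKM in hyperoxia and 28.1 ± 2.34 FPKM in normoxia. Kcnj8, the pore of the pericyte ATP-sensitive potassium channel, was 0.737, 1.21, 1.10 and 0.434 FPKM in hyperoxia, against 2.36, 1.67, 1.98 and 1.94 FPKM in normoxia (log2 change -0.89, SE 0.21, adjusted p = 0.0903). Abcc9, the regulatory subunit of that channel, was 1.06, 0.985, 0.619 and 0.482 FPKM in hyperoxia, against 1.33, 1.68, 1.32 and 1.51 FPKM in normoxia (log2 change -0.63, adjusted p = 0.237). Hyperoxia library 4 was the lowest for all of these, and the highest hyperoxia value stayed under the lowest normoxia value in each. Pdgfrb, Notch3 and Acta2 of the same list, named after their values were seen, changed little (log2 change -0.09, -0.07 and 0.01). Between libraries 1 and 2 of the groups 4 of the 9 lay above 0, and between libraries 3 and 4 0 did, a split chosen after seeing the data.

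Genes that drive or restrain vessel growth did not show a common direction. Of 19 tested angiogenic factors 1 was called, Sema7a, and the median log2 change was 0.05 in C57 and -0.08 in BALBc. Vegfa, the main angiogenic growth factor, was 27.1, 33.7, 40.8 and 28.5 FPKM in hyperoxia, against 37.8, 45.6, 22.7 and 24.8 FPKM in normoxia (log2 change 0.03, adjusted p = 0.977). The highest hyperoxia value was in library 3 and the highest normoxia values in libraries 1 and 2, and the groups overlapped. Of 23 targets of the hypoxia-inducible factors 0 were called and 16 lay above 0 (51.5% over all genes). With an unadjusted p under 0.05, 2 were higher and 1 lower (6.74% and 6.55% over all genes). The median was 0.10 in C57 and -0.12 in BALBc. The 2 higher ones were Bhlhe40, also a clock gene, and Higd1a, a mitochondrial respiration factor, at 19.9, 21.1, 21.7 and 20.2 FPKM in hyperoxia, against 15.6, 15.997, 19.7 and 17.7 FPKM in normoxia (log2 change 0.26, adjusted p = 0.273). The lower one was P4ha1, a collagen prolyl hydroxylase (log2 change -0.33, adjusted p = 0.359). The glycolysis list had 15 of 22 members below 0 (48.4% over all genes), with 0 called and a median of -0.17 in C57 and -0.22 in BALBc. Between libraries 1 and 2 of the groups its median was 0.05, with 15 members above 0. Between libraries 3 and 4 it was -0.40, with 3 above 0, a split chosen after seeing the data. Unlike the list, Pfkl and Pdk1 were lower in both of these comparisons. Pfkl, a phosphofructokinase, was 20.7, 20.1, 23.4 and 25.2 FPKM in hyperoxia, against 26.01, 25.2, 38.97 and 37.5 FPKM in normoxia (log2 change -0.48, adjusted p = 0.125), and Pdk1, which turns off pyruvate dehydrogenase, was 5.31, 5.40, 4.74 and 4.20 FPKM in hyperoxia, against 6.53, 6.32, 6.26 and 7.45 FPKM in normoxia (log2 change -0.40, adjusted p = 0.236).

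Most circadian clock genes lay on the higher side in C57, without a call. The core clock is a feedback loop in which CLOCK and BMAL1 (the product of Arntl) activate Per, Cry, Nr1d and output genes through E-box sequences, and the retina holds a clock of its own. Of 19 tested members 0 were called, 16 lay above 0 (51.5% of all genes did), and 11 were higher and 1 lower with an unadjusted p under 0.05 (6.74% of all genes were higher at that level). The median was 0.37 in C57 and -0.06 in BALBc. The list mean was 3.99, 3.98, 3.63 and 3.63 in hyperoxia, against 3.35, 3.40, 3.59 and 3.61 in normoxia: hyperoxia libraries 1 and 2 stood above the other 6, hyperoxia libraries 3 and 4 were beside normoxia libraries 3 and 4, and normoxia libraries 1 and 2 were lowest.

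The output factor Tef and the repressor Bhlhe40 separated the groups. Tef was 38.5, 39.2, 32.2 and 35.6 FPKM in hyperoxia, against 25.5, 28.8, 28.1 and 29.1 FPKM in normoxia (log2 change 0.38, SE 0.08, adjusted p = 0.0636). Bhlhe40 was 4.87, 5.22, 5.93 and 5.24 FPKM in hyperoxia, against 2.19, 2.27, 2.90 and 4.28 FPKM in normoxia (log2 change 0.81, SE 0.18, adjusted p = 0.0757). Usp2, a deubiquitinase that follows the clock, did so in part only, at 20.04, 18.5, 7.49 and 7.27 FPKM in hyperoxia, against 4.47, 4.87, 7.39 and 8.38 FPKM in normoxia (log2 change 0.92, SE 0.29, adjusted p = 0.168). Its log2 difference was 1.93 between libraries 1 and 2 of the groups and -0.09 between libraries 3 and 4, a split chosen after seeing the data. Cry2, a repressor of the loop, was 22.1, 20.5, 15.98 and 16.8 FPKM in hyperoxia, against 12.9, 13.03, 15.4 and 16.3 FPKM in normoxia (log2 change 0.37, adjusted p = 0.171), with hyperoxia library 3 inside the range of normoxia. Per1, Nr1d1 and Arntl were named after their values were seen. The repressor Per1 was 18.4, 18.1, 11.1 and 12.1 FPKM in hyperoxia, against 8.65, 9.46, 11.5 and 12.5 FPKM in normoxia (log2 change 0.47, adjusted p = 0.22). Nr1d1, the receptor REV-ERB alpha, was 29.1, 28.6, 20.3 and 19.6 FPKM in hyperoxia, against 14.9, 15.6, 21.6 and 23.1 FPKM in normoxia (log2 change 0.37, adjusted p = 0.338). Both were highest in hyperoxia libraries 1 and 2 and lowest in normoxia libraries 1 and 2. Arntl was 16.6, 16.4, 15.03 and 16.9 FPKM in hyperoxia, against 16.2, 15.6, 16.1 and 16.3 FPKM in normoxia (log2 change 0.02, adjusted p = 0.966), with the 8 libraries close together. The hour of sampling is not given in the sources used here.

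The E-box of the clock is the palindrome CACGTG. In the 250 bases before the start of each gene in the RefSeq table (GRCm38.p6), 6.02% of 32851 promoters hold it. Of the 19 tested clock genes 17 had a promoter in the table, and 5 of these, Bhlhe41, Ciart, Cry1, Per1 and Tef, held a match. Tef and Per1 have 2 promoters each there. The promoters of Tef (chr15:81802423-81802672, + strand) and Per1 (chr11:69098699-69098948, + strand) are shown 5′ to 3′ because both genes were highest in hyperoxia libraries 1 and 2; capitals mark the E-box, which begins 127 and 166 bases before the start. A match is a description of these letters and not of binding.
Tef: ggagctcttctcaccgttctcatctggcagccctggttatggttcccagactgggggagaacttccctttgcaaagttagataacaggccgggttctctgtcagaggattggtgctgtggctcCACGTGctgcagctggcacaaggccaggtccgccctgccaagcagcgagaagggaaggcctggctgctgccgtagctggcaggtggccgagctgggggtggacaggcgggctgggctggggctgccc
Per1: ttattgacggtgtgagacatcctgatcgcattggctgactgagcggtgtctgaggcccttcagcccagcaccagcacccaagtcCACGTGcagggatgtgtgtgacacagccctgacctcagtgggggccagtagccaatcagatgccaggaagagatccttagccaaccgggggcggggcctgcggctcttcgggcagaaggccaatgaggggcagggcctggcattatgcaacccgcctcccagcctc

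Immediate early genes, which neurons induce within minutes of activity, had 12 tested members. None was called, 9 lay above 0 (51.5% over all genes) and 6 were higher with an unadjusted p under 0.05 (6.74%). The median was 0.25 in C57 and 0.21 in BALBc. Junb was 10.48, 8.76, 8.76 and 9.15 FPKM in hyperoxia, against 6.87, 5.25, 7.32 and 7.59 FPKM in normoxia (log2 change 0.44, SE 0.10, adjusted p = 0.0891), and Ier2 was 11.8, 12.4, 12.8 and 13.2 FPKM in hyperoxia, against 9.01, 8.46, 9.44 and 11.1 FPKM in normoxia (log2 change 0.39, SE 0.10, adjusted p = 0.113). The groups did not overlap for either. Egr1 was 12.2, 24.3, 9.90 and 11.9 FPKM in hyperoxia, against 8.40, 7.14, 7.79 and 7.77 FPKM in normoxia (log2 change 0.78, adjusted p = 0.183), with hyperoxia library 2 far above the rest. Fos was 4.84, 7.58, 5.55 and 4.803 FPKM in hyperoxia, against 3.71, 2.71, 3.86 and 4.71 FPKM in normoxia (log2 change 0.54, adjusted p = 0.204). Beside Rbm3, the other RNA binding protein of the cold response, Cirbp, was 173, 172, 124 and 148 FPKM in hyperoxia, against 109.8, 110.3, 97.8 and 97.7 FPKM in normoxia (log2 change 0.56, SE 0.13, adjusted p = 0.0891), with no overlap; 5 of the 12 members of that list lay above 0.

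Several chaperones of the endoplasmic reticulum lay on the lower side, without a call. The unfolded protein and heat shock list had 18 tested members and 0 called. With an unadjusted p under 0.05, 0 were higher and 7 lower (6.74% and 6.55% over all genes). The median was -0.02 in C57 and 0.02 in BALBc, with 9 members above and 9 below 0. Hspa5, the chaperone BiP and sensor partner of the unfolded protein response, was 46.02, 44.5, 79.8 and 71.3 FPKM in hyperoxia, against 83.3, 70.4, 126 and 104 FPKM in normoxia (log2 change -0.68, SE 0.20, adjusted p = 0.161). Hsp90b1, the chaperone GRP94, was 53.5, 51.4, 77.1 and 70.5 FPKM in hyperoxia, against 83.6, 78.04, 121 and 99.96 FPKM in normoxia (log2 change -0.60, SE 0.16, adjusted p = 0.127). For both, hyperoxia lay below normoxia within libraries 1 and 2 and within libraries 3 and 4; over all 8 libraries the groups overlapped for Hspa5 and not for Hsp90b1. Hspa8, the constitutive cytosolic chaperone, was 183, 169, 250.3 and 234 FPKM in hyperoxia, against 279.8, 221, 311 and 282 FPKM in normoxia (log2 change -0.40, adjusted p = 0.278), and Pdia4, a disulfide isomerase, was 30.7, 28.2, 49.4 and 49.7 FPKM in hyperoxia, against 49.1, 47.1, 65.03 and 56.6 FPKM in normoxia (log2 change -0.49, adjusted p = 0.234). Hsph1, a cytosolic co-chaperone, was 6.80, 6.75, 8.92 and 8.85 FPKM in hyperoxia, against 8.98, 10.7, 13.3 and 13.2 FPKM in normoxia (log2 change -0.52, adjusted p = 0.104), and every hyperoxia library lay below normoxia. Xbp1 and Sdf2l1, named after their values were seen, were low in hyperoxia libraries 1 and 2 only: Xbp1, a transcription factor of the response, was 10.4, 8.28, 25.02 and 23.7 FPKM in hyperoxia, against 23.2, 21.6, 26.98 and 25.4 FPKM in normoxia (log2 change -0.66, adjusted p = 0.273), and Sdf2l1 1.08, 1.22, 4.95 and 4.64 FPKM in hyperoxia, against 4.66, 5.33, 5.28 and 4.26 FPKM in normoxia (log2 change -0.86, adjusted p = 0.286). The integrated stress response list had 12 of 14 members above 0 (51.5% over all genes), with a median of 0.20 in C57 and 0.06 in BALBc. Sesn2 was the 1 call of that list, where 0.107% of all genes were called higher. With an unadjusted p under 0.05, 2 members were higher and 0 lower (6.74% and 6.55% over all genes). Atf4, a factor of that response, was 139.8, 137, 149.8 and 156 FPKM in hyperoxia, against 123, 111, 139 and 125 FPKM in normoxia (log2 change 0.23, adjusted p = 0.371).

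The ER stress element, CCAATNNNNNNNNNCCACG, through which the unfolded protein response activates chaperone genes, was searched on both strands in the same 250 bases. It is in 0.113% of 32851 promoters, and in 2 of the 15 tested members of the list that had a promoter in the table, Hspa5 and Hsp90b1. The promoters of Hspa5 (chr2:34771840-34772089, + strand) and Hsp90b1 (chr10:86705445-86705694, - strand) are shown 5′ to 3′, with the element in capitals: Hspa5 has 1 match, 65 bases before the start, and Hsp90b1 has 2, which begin 212 and 107 bases before it.
Hspa5: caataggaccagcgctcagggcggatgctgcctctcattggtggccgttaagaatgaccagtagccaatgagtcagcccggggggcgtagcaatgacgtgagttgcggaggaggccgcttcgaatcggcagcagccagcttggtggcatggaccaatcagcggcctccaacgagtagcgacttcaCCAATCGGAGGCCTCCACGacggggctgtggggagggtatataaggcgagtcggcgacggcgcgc
Hsp90b1: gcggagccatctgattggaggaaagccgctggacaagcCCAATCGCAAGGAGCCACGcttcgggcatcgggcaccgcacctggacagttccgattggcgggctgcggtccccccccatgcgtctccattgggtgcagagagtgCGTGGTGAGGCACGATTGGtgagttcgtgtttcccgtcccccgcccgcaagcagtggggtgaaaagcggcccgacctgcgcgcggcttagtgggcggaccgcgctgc

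**Figure D2:**
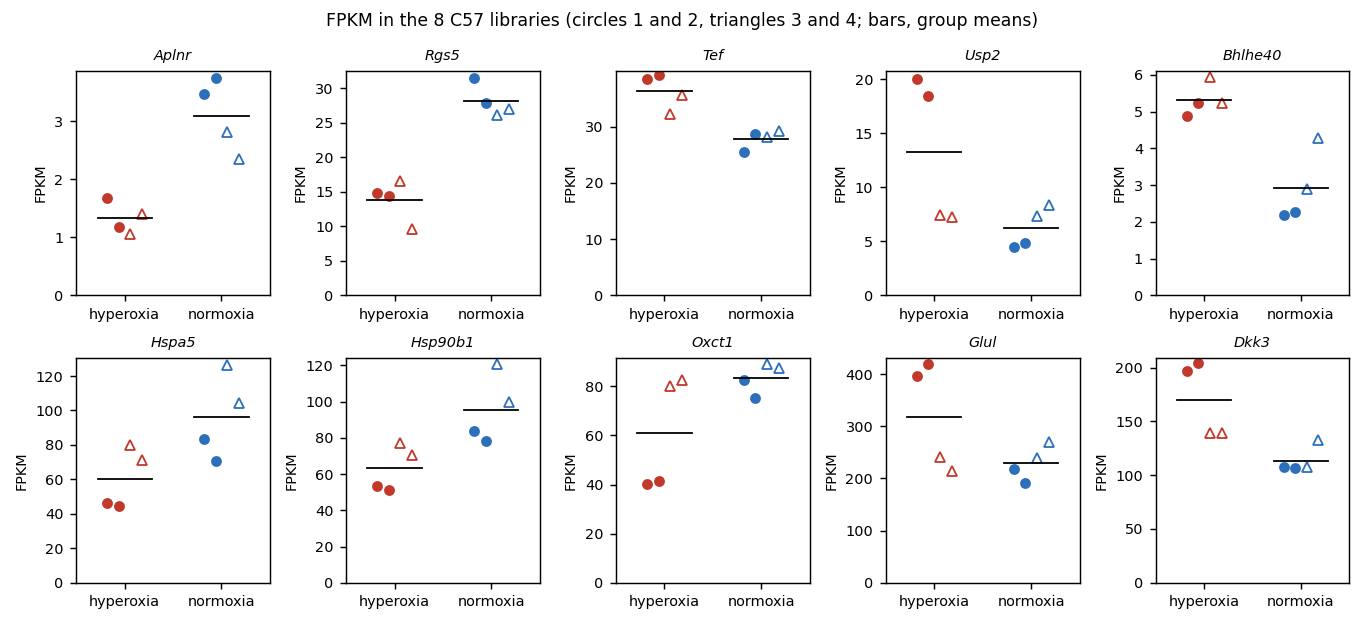
FPKM of 10 genes in each of the 8 C57 libraries, hyperoxia in red at the left and normoxia in blue at the right of each panel; filled circles are libraries 1 and 2, open triangles libraries 3 and 4, and bars the group means. Aplnr, Rgs5, Tef, Bhlhe40 and Dkk3 do not overlap between the groups, while Usp2, Oxct1 and Glul stand apart in hyperoxia libraries 1 and 2 alone.

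Lipid and ketone lists gave single calls. Of 15 genes of triglyceride storage and lipolysis 1 was called, Pnpla2, and the median of the list was 0.01 in C57 and -0.05 in BALBc. Dgat2, which makes triglyceride, was 7.14, 7.53, 4.88 and 4.71 FPKM in hyperoxia, against 4.38, 3.57, 3.76 and 3.89 FPKM in normoxia (log2 change 0.55, adjusted p = 0.142). The fatty acid synthesis list had 0 of 20 called, with an unadjusted p under 0.05 for 5 above and 1 below 0 (6.74% and 6.55% over all genes). Its leading member was Srebf1, the transcription factor of lipid synthesis, at 32.4, 30.2, 26.4 and 31.2 FPKM in hyperoxia, against 15.9, 16.4, 23.9 and 21.7 FPKM in normoxia (log2 change 0.63, SE 0.13, adjusted p = 0.0534), and the fatty acid synthase Fasn was 28.7, 27.98, 23.5 and 26.99 FPKM in hyperoxia, against 16.03, 19.6, 20.9 and 25.5 FPKM in normoxia (log2 change 0.39, adjusted p = 0.184). Both had the lowest values in normoxia libraries 1 and 2. Of 24 fatty acid oxidation genes 0 were called, and the median was 0.04 in C57 and 0.06 in BALBc. Cpt1a, the enzyme that admits fatty acids to mitochondria, was 62.5, 67.9, 53.8 and 65.4 FPKM in hyperoxia, against 42.01, 45.8, 72.9 and 71.7 FPKM in normoxia (log2 change 0.14, adjusted p = 0.761). Of 7 ketone body genes 1 was called, Slc16a7. Oxct1, which lets tissues burn ketone bodies, was 40.4, 41.5, 80.2 and 82.5 FPKM in hyperoxia, against 82.4, 75.3, 89.1 and 87.3 FPKM in normoxia (log2 change -0.53, adjusted p = 0.249): hyperoxia libraries 1 and 2 stood far below the other 6. Of 21 cholesterol genes 0 were called, with 14 below 0; the lipid exporter Abca1 was 11.5, 11.1, 7.70 and 9.27 FPKM in hyperoxia, against 5.46, 7.07, 5.72 and 5.63 FPKM in normoxia (log2 change 0.67, adjusted p = 0.11).

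Genes of ribosomes and of oxidative phosphorylation lay slightly above 0. Of 44 ribosomal protein genes 0 were called, 43 lay above 0 (51.5% over all genes) and 20 were higher with an unadjusted p under 0.05 (6.74%). The median was 0.28 in C57 and 0.53 in BALBc. The list mean was 6.63, 6.59, 6.82 and 6.89 in hyperoxia, against 6.24, 6.05, 6.80 and 6.53 in normoxia, and the groups overlapped through normoxia library 3. Rpl32 was 173, 169.7, 177 and 199 FPKM in hyperoxia, against 107, 101, 167 and 143 FPKM in normoxia (log2 change 0.50, adjusted p = 0.142). Complex I had 33 of 37 members above 0 and a median of 0.16 in C57 and 0.48 in BALBc, and complexes II to V had 40 of 40 above 0 and a median of 0.18 in C57 and 0.53 in BALBc; none of either was called. Ndufb2 went the other way, at 4.17, 3.25, 5.08 and 5.54 FPKM in hyperoxia, against 7.15, 6.32, 6.46 and 6.16 FPKM in normoxia (log2 change -0.51, adjusted p = 0.109), and its exons overlap those of Braf. Of 13 genes of the mitochondrial genome all lay above 0, 0 were called and the median was 0.41 in C57 and 0.43 in BALBc. The complex I subunit mt-Nd1 was 4571, 4379, 4984 and 4189 FPKM in hyperoxia, against 1911, 2102, 4468 and 3577 FPKM in normoxia (log2 change 0.68, adjusted p = 0.445). For these lists normoxia libraries 1 and 2, the same that were low in rod genes, were the lowest of the 8. With the rod list mean as a covariate the medians were 0.27 for the ribosomal, 0.14 for the complex I, 0.16 for the complexes II to V and 0.37 for the mitochondrial genome list. The rod list mean averaged nearly the same in both C57 groups, so this covariate could move the medians little. The part of rod content in these lists was not tested.

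Rod and cone lists gave no call. Of 20 rod genes 0 were called and 0 had an unadjusted p under 0.05, with a median of -0.02 in C57 and -0.01 in BALBc. The list mean was 8.41, 8.44, 8.34 and 8.54 in hyperoxia, against 7.89, 7.71, 9.14 and 8.83 in normoxia: the hyperoxia libraries were close together, with normoxia libraries 1 and 2 below them and normoxia libraries 3 and 4 above them. All 20 rod genes were above 0 between libraries 1 and 2 of the groups and all 20 below 0 between libraries 3 and 4. Of 12 cone genes 3 were lower with an unadjusted p under 0.05 (6.55% over all genes) and 0 were called. Cngb3, a subunit of the cone channel, was 3.85, 2.98, 4.89 and 4.78 FPKM in hyperoxia, against 5.72, 5.28, 8.06 and 7.27 FPKM in normoxia (log2 change -0.62, adjusted p = 0.102), and Arr3, cone arrestin, was 9.28, 13.3, 23.3 and 30.8 FPKM in hyperoxia, against 21.9, 22.3, 43.6 and 35.9 FPKM in normoxia (log2 change -0.76, adjusted p = 0.283). Opn1sw, the short-wave cone opsin, was 96.4, 109, 73.5 and 83.3 FPKM in hyperoxia, against 91.9, 75.8, 113 and 82.8 FPKM in normoxia (log2 change -0.01, adjusted p = 0.992), with overlap.

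The photoreceptor cilium list, the connecting cilium and its transport proteins, had 23 of 27 tested members below 0 (48.4% over all genes). Of these 11 had an unadjusted p under 0.05 (6.55% of all genes were lower at that level). Of the list 1 was called, Wdr19, where 0.227% of all genes were called lower. The median was -0.24 in C57 and -0.05 in BALBc. Mak, a kinase that limits cilium length, was 25.3, 26.7, 28.5 and 31.5 FPKM in hyperoxia, against 36.1, 38.5, 38.6 and 35.8 FPKM in normoxia (log2 change -0.41, SE 0.11, adjusted p = 0.113). Kif3a, a subunit of the anterograde kinesin, was 19.2, 19.2, 22.2 and 22.2 FPKM in hyperoxia, against 27.9, 28.7, 25.002 and 25.9 FPKM in normoxia (log2 change -0.37, SE 0.11, adjusted p = 0.152). The hyperoxia libraries did not overlap the normoxia libraries for either. Cep290, a gatekeeper of the connecting cilium, was 14.03, 14.7, 18.6 and 14.7 FPKM in hyperoxia, against 25.1, 28.02, 21.4 and 18.2 FPKM in normoxia (log2 change -0.55, adjusted p = 0.145), and hyperoxia library 3 was just above normoxia library 4. The list mean was 4.18, 4.26, 4.43 and 4.52 in hyperoxia, against 4.46, 4.53, 4.73 and 4.64 in normoxia.

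**Figure D3:**
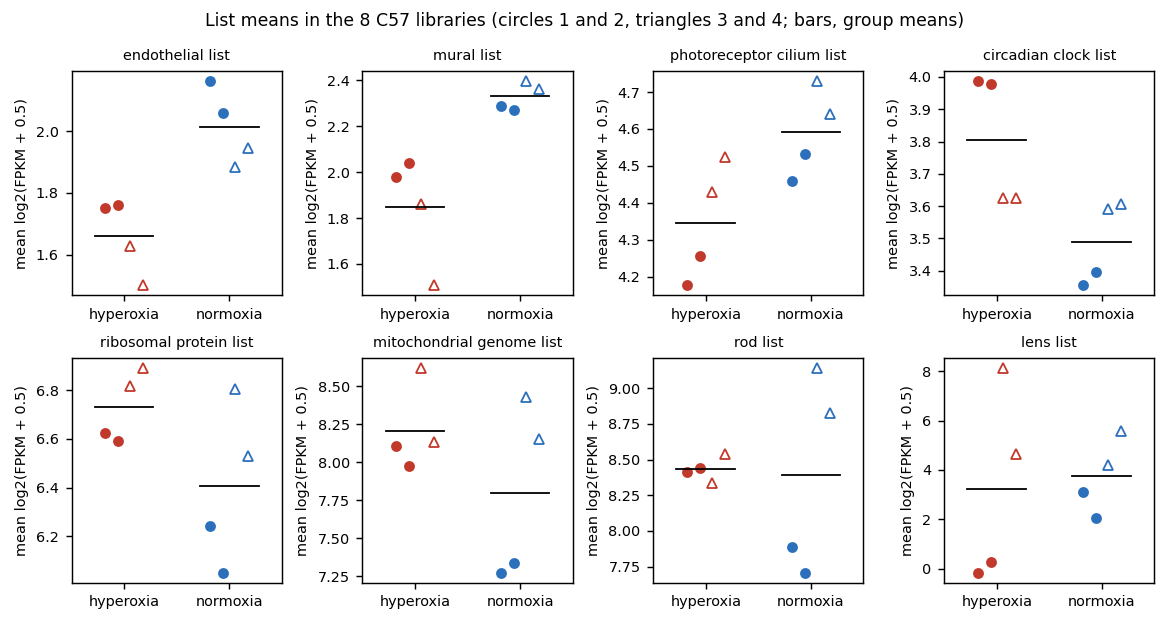
Mean log2(FPKM + 0.5) over the tested members of 8 gene lists in each C57 library, hyperoxia in red at the left and normoxia in blue at the right; filled circles are libraries 1 and 2, open triangles libraries 3 and 4, and bars the group means. The vertical axes differ between panels and do not start at 0. The endothelial and mural means do not overlap between the groups, and the rod means of normoxia lie on both sides of hyperoxia.

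Glial lists gave 1 call. Of 14 Müller glia genes 0 were called, and 2 were higher and 2 lower with an unadjusted p under 0.05 (6.74% and 6.55% over all genes). The median was 0.22 in C57 and -0.33 in BALBc. It was 0.46 between libraries 1 and 2 of the C57 groups and 0.03 between libraries 3 and 4, a split chosen after seeing the data. Glul, which turns glutamate into glutamine in Müller glia, was 396, 419, 242 and 215 FPKM in hyperoxia, against 218, 191, 239 and 269 FPKM in normoxia (log2 change 0.42, SE 0.21, adjusted p = 0.398), so hyperoxia libraries 1 and 2 stood above the other 6, which lay between 191 and 269 FPKM. Dkk3, a secreted modulator of Wnt signalling, was 197, 204, 139 and 139 FPKM in hyperoxia, against 108, 106, 107 and 133 FPKM in normoxia (log2 change 0.56, SE 0.15, adjusted p = 0.128). Slc1a3, the glutamate transporter GLAST, was 15.99, 17.2, 26.7 and 23.7 FPKM in hyperoxia, against 40.5, 36.7, 23.4 and 25.99 FPKM in normoxia (log2 change -0.58, adjusted p = 0.315), and Abca8a, a lipid transporter, was 10.7, 11.7, 15.5 and 12.6 FPKM in hyperoxia, against 23.8, 20.9, 19.5 and 17.5 FPKM in normoxia (log2 change -0.68, SE 0.17, adjusted p = 0.103). Abca8a separated the groups and Slc1a3 did not. Of 9 tested reactive glia genes Lcn2 alone was called. Gfap was 5.73, 6.004, 7.71 and 4.87 FPKM in hyperoxia, against 6.04, 4.63, 5.77 and 5.17 FPKM in normoxia (log2 change 0.15, adjusted p = 0.894), with overlap. The metallothionein Mt1 was 27.4, 34.5, 11.8 and 13.9 FPKM in hyperoxia, against 7.66, 5.17, 10.6 and 13.8 FPKM in normoxia (log2 change 1.14, adjusted p = 0.197), high in hyperoxia libraries 1 and 2 only. The astrocyte marker S100b was 8.09, 8.42, 7.80 and 5.57 FPKM in hyperoxia, against 3.42, 3.48, 4.89 and 5.37 FPKM in normoxia (log2 change 0.74, adjusted p = 0.335). Of 12 microglia genes 0 were called, and the median was 0.09 in C57 and 0.37 in BALBc.

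Neuronal and other lists gave few calls. Bipolar genes had 1 of 19 called, Gng13, where 0.107% of all genes were called higher. Of the 19, 12 lay below 0 (48.4% over all genes), and the median was -0.04 in C57 and -0.27 in BALBc. With an unadjusted p under 0.05, Gng13 was the 1 higher member and 2 were lower (6.74% and 6.55% over all genes). The 14 amacrine, 13 ganglion, 4 horizontal and 24 synapse genes had 0 called and medians between -0.01 and 0.09. The p53 target list had 1 of 16 called, Sesn2, the imprinted list 1 of 16, Mest, and the zinc and metal transport list 1 of 22, Slc39a10. The antioxidant (24 genes), TCA cycle (20), serine and one-carbon (10), cell cycle (13), interferon response (11), retained nuclear RNA (10) and X escape (6) lists had 0 called, with medians of 0.10, 0.09, 0.05, -0.06, -0.02, 0.19 and 0.30.

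Markers of cells outside the neural retina varied between libraries. The lens list mean was -0.15, 0.29, 8.12 and 4.64 in hyperoxia, against 3.13, 2.06, 4.21 and 5.59 in normoxia, the pigment epithelium mean 2.51, 3.32, 2.51 and 2.85 in hyperoxia, against 2.05, 2.001, 3.43 and 3.37 in normoxia and the fibroblast mean 2.05, 2.20, 2.14 and 1.87 in hyperoxia, against 1.30, 1.77, 1.12 and 1.80 in normoxia. Hyperoxia library 3 was high in lens genes. Of the 9 genes on the fibroblast list 5 were tested, and these lay above 0 with 0 called. The fibroblast genes Col1a1, Col3a1, Dcn and Lum were not tested. None of them reached 1 FPKM in a C57 library, and their groups overlapped. Fbln1, a matrix fibulin, was 5.98, 7.97, 5.35 and 5.89 FPKM in hyperoxia, against 1.15, 2.67, 0.975 and 5.28 FPKM in normoxia (log2 change 1.38, adjusted p = 0.343), and Col18a1, a basement membrane collagen, was 15.3, 21.2, 13.4 and 12.9 FPKM in hyperoxia, against 5.16, 8.56, 8.12 and 13.5 FPKM in normoxia (log2 change 0.84, adjusted p = 0.326). For both, normoxia library 4 lay close to hyperoxia. The basement membrane list had a median of 0.12 in C57 and -0.38 in BALBc over 12 genes, 0 called. The 5 erythroid genes had a median of -0.21 in C57 and -1.76 in BALBc, 0 called. The sex list (Xist and 4 Y-linked genes) had 0 called, and all 5 had an unadjusted p under 0.05, Xist above 0 and the others below. The part of these cells in the called genes was not tested.

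The same comparison in BALBc shares no library with C57, though both enter 1 model with a pooled spread. There limma called 24 genes (0.161%). Of the 50 genes called in C57, 40 had the same sign in BALBc, where 56.1% of all genes did, and 17 had the same sign with an unadjusted p under 0.05 in BALBc, where 9.90% of all genes did. Cdan1 and Hrh3 had the opposite sign at that level (-0.33 and -0.38 in BALBc). AU021092 was -1.13 in C57 and -1.13 in BALBc, and Cd34 -0.98 in C57 and -0.79 in BALBc. The test of the difference between the strains' changes called 0 genes (limma, smallest adjusted p 0.245, 1430 genes or 9.56% at an unadjusted p under 0.05), and limma voom on recovered reads also called 0. With library weights 3473 genes were called for the difference, and with the rod covariate 7. Of the 50 called genes 36 had an unadjusted p of the difference under 0.05; they were called on their C57 change, so this count is not independent of the calls. Pnpla2 was 0.61 in C57 and -0.15 in BALBc (unadjusted p of the difference 0.000132), and Cog5 -0.60 in C57 and 0.03 in BALBc (0.000149). Glul, Hlf, Per2 and Hspa5 were not called, and Hlf and Per2 were named after their values were seen. Their changes were 0.42, 0.55, 0.36 and -0.68 in C57 and -0.78, -0.53, -0.65 and 0.17 in BALBc.

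**Figure D4:**
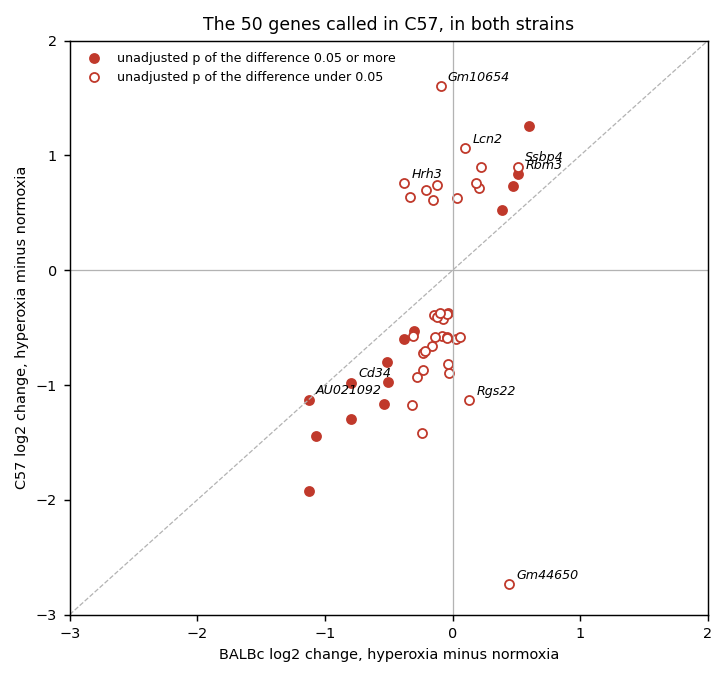
Log2 changes of the 50 genes called in C57, BALBc on the horizontal and C57 on the vertical axis, both hyperoxia minus normoxia. The dashed line marks equal changes, open circles have an unadjusted p of the difference under 0.05 and filled circles 0.05 or more; AU021092 at -1.13 in both strains lies on the line, and Rgs22, Gm10654 and Gm44650 lie far from it.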

How the data were processed

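The authors deposited 1 table of FPKM per gene for the retina libraries. Per the submitters' processing notes, HISAT2 2.0.5, featureCounts 1.5.0-p3 and GRCm38 (mm10) were used; the strand setting is not given in the sources used here. Per the labels, TRIzol was used for total RNA and a NEBNext Ultra II kit for the libraries. The deposited FPKM values are not counts: whole reads were recovered from their steps for 97.2 to 97.5% of values in the C57 libraries (tolerance 0.01), and were used for depth and for a limma voom alternative only. The deposited values behave as if scaled by median-of-ratios size factors, within 0.0202%. Of 54532 genes 54495 matched GENCODE vM21 for positions and classes.

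Log2(FPKM + 0.5) of the 14953 genes that reached 1 FPKM in 4 or more of 16 libraries was fitted with limma 3.58.1 (R 4.3.3), with a mean for each of the 4 groups (strain by oxygen), a mean-variance trend and Benjamini-Hochberg adjustment, two-sided. The steps were tested on simulated data with known changes. The simulated libraries held no pairs, no sex difference and no rod or lens differences, so that test does not cover these features. Groups came from the labels. Named genes are the 12 protein-coding called genes with the largest change each way and a mean of at least 2 FPKM in either C57 group, the next 10 genes after the threshold, and from each of 47 lists up to 4 genes of smallest p and the 2 most abundant; Vegfa, Kdr, Cldn5, Pecam1, Rgs5, Gnat1, Glul, Gfap, Xist, Ddx3y, Pnpla2, Sesn2, Rbm3 and Lcn2 were always included. Not every gene the rule names is described, and some are not reported here. The comparison, the lists and the naming rule were chosen with earlier results of these data known. GC content and length were taken from the longest GENCODE transcript. Alternatives changed the pseudocount, filter, scaling, test, covariates and libraries.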

Additional observations from a re-analysis of the deposited data

Results flagged for a closer look

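In 3 of 328 groups of 4 libraries examined (117 described genes and 47 list means in hyperoxia and in normoxia), 1 library stood far from the other 3 by Dixon's test at the 95% level. Chance gives this in about 1 in 20 groups. Normoxia library 1 had 30.4 FPKM of Cldn5, where the other normoxia libraries had 19.7 to 20.8 FPKM. Normoxia library 4 had 132.9 FPKM of Dkk3, where the other 3 had 106.4 to 107.5 FPKM. The same library had 60.7 FPKM of Xist, where the other 3 had 0.0186 to 0.0335 FPKM.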

How the results depend on the processing

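The C57 call count of 50 depended on the processing. There were 29 other settings, 23 planned and 6 chosen after seeing the data, and every tested call kept its sign in all 29. The groups did not overlap for any call, so leaving out C57 libraries could not change a sign. Fits that changed only the estimate of the spread could not either. The call count stayed within 1.5 times in 6 settings, was smaller in 16 and larger in 7. It was 32 with a pseudocount of 0.1, 9 with no filter, 27 with a mean of at least 5 FPKM, 1 with the C57 libraries alone (not among the 50), 99 after quantile normalization, 16 without the mean-variance trend, 2798 with library weights, 0 with the Ddx3y sex covariate, 431 with the rod covariate and 8 without the 2 normoxia libraries lowest in Gnat1. Leaving out 1 library gave 0 to 85 calls. Chosen after seeing the data, it was 3 without hyperoxia libraries 1 and 2, 863 without hyperoxia libraries 3 and 4, 216 with the pair of libraries as a term, 965 with libraries 1 and 2 alone and 0 with libraries 3 and 4 alone. TPM scaling gave 54 calls, 7 higher and 47 lower, of which 19 were among the 50, and moved the median of all genes to -0.06. The test of the difference between strains gave 0 calls in 27 of 30 settings, 3473 with library weights, 7 with the rod covariate and 0 to 1 without 1 library (1 without BALBc hyperoxia library 3).

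With the replicate number as a block 1 gene was called. The labels do not tie the numbers to a litter or batch: deviations of same-numbered libraries correlated at 0.0874, 0.207, 0.0860 and 0.153, and not every library correlated best with its own number. Between the groups, libraries 1 and 2 correlated positively with libraries 1 and 2, and libraries 3 and 4 with 3 and 4 (0.0860 to 0.207). Every correlation of libraries 1 or 2 with libraries 3 or 4 of the other group was negative (-0.194 to -0.0631). The cause of this pattern was not tested.

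Sign changes were counted for genes with an unadjusted p under 0.05 in the reported test, and there were 10. Other genes, such as Glul and the rod genes with libraries 3 and 4 alone, changed sign too and were not counted. With the sex covariate Ddx3y was 0.35, Eif2s3y 0.23, Kdm5d 0.34, Uty 0.68 and Xist -1.69. That covariate is Ddx3y itself, so the signs of these sex genes under it say nothing about oxygen. With C57 libraries 3 and 4 alone Usp2 was -0.087, Sesn1 -0.036, Cabp5 0.052, Slc1a3 0.029 and Pcx -0.018. The cause of the sign changes with libraries 3 and 4 alone was not tested. Of 1357 list medians 134 moved beyond the spread. Genes at about 1 FPKM or less in a group, such as Cd34 and Kcnj8 in hyperoxia, rest on fewer reads there.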

Other observations

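Some genes outside the naming rule, chosen after their values were seen, stood out. Mir210, the gene of a hypoxia-induced microRNA, was 5.17, 1.96, 4.16 and 6.99 FPKM in hyperoxia, against 0.782, 0, 0.673 and 0 FPKM in normoxia (log2 change 2.58, adjusted p = 0.0611). It is a short gene in the annotation, and the mature microRNA was not measured. Among the lower called genes, Agtpbp1, an enzyme that shortens tubulin side chains, had a log2 change of -0.40 (adjusted p = 0.0454), and Esrrg, an orphan nuclear receptor of mitochondrial genes, of -0.38 (adjusted p = 0.0454). Tube1, epsilon tubulin of centrioles, was 3.36, 3.62, 3.51 and 3.88 FPKM in hyperoxia, against 5.90, 5.46, 5.37 and 4.92 FPKM in normoxia (log2 change -0.53, adjusted p = 0.0466), and every hyperoxia library lay below every normoxia library; its exons overlap those of Ccn6. The pseudogene Rbm3-ps, which shares sequence with Rbm3, had a log2 change of 1.60 (adjusted p = 0.0611), beside 0.84 for Rbm3, and reads of the pair may be split between them.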
